A study of Rattus norvegicus with 8 samples.

Results

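The data describe 9 genes in the livers of 8 rats: the class II chain genes RT1-Ba, RT1-Bb, RT1-Da and RT1-Db1, the class I heavy chain genes RT1-CE5 and RT1-CE10, the invariant chain gene Cd74, the class II transactivator gene Ciita, and Fam111a, which encodes a protease of the cell nucleus. They were chosen, out of 14217 genes with a probe set of their own on the array, because earlier results of these same data had shown probe sets of rat major histocompatibility complex (MHC) genes with a high signal in some livers and a low signal in others. Their values are therefore given as a description, and no p-value is given for any of them. Every probe set annotated to a member was taken, 20 in all, of which 19 carry 1 gene symbol and 1 lists RT1-CE5 together with other RT1 symbols.

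Male Sprague-Dawley rats of the Jcl:SD stock, 7 weeks old at sampling, gave total liver RNA that was hybridised to Affymetrix expression arrays, 1 array per rat. For 2 weeks the control rats received the rodent chow CRF-1 with 10 g of cholesterol and 5 g of cholic acid per kg, and the L. brevis rats received that same diet with 10 g per kg of the lactic acid bacterium Lactobacillus brevis 119-2, fed alive after freeze-drying. All 8 rats thus shared the cholesterol and cholic acid according to the series' design text, although 1 label of the control arrays gives only CRF-1. The study had 11 rats per diet, arrays of 4 per diet were used here, and its stated subject is the cholesterol of the liver. Each value is a log2 signal as deposited, so a step of 1 is a 2-fold difference, and every difference between the diets is L. brevis minus control.

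RT1 is the MHC of the rat. Its class II genes encode the alpha and beta chains that present peptides from outside the cell to helper T cells, mainly on macrophages, dendritic cells and B cells, which in liver are a minority beside hepatocytes. Class II chains are held by the invariant chain Cd74 until a peptide is loaded, and their genes share promoter boxes that are read by RFX, CREB and NF-Y together with the coactivator Ciita. Class I heavy chains pair with beta-2 microglobulin and present peptides from inside nearly every nucleated cell. The MHC genes of vertebrates differ widely in sequence and in gene number between individuals, and Sprague-Dawley rats are an outbred stock.

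The promoters of the 4 class II chain genes are shown because these genes, which share a Y box, had very different spreads between the livers. The stretches are the 250 bases before the annotated start, written from upstream to downstream on the gene's own strand, from RefSeq on the GRCr8 assembly, which is a reference sequence and not that of these rats. Capitals mark the Y box, searched as CTGATTGG or its reverse complement CCAATCAG, and any other match to CCAAT or ATTGG. RT1-Ba lies at chr20:4576807-4577056 on the plus strand, RT1-Bb at chr20:4604119-4604368 on the minus strand, RT1-Da at chr20:4515165-4515414 on the plus strand and RT1-Db1 at chr20:4560163-4560412 on the minus strand.
RT1-Ba: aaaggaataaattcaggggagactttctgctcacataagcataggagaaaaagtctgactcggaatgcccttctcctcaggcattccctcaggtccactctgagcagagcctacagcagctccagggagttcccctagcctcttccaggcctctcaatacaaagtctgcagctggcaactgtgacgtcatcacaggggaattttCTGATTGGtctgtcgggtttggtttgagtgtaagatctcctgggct
RT1-Bb: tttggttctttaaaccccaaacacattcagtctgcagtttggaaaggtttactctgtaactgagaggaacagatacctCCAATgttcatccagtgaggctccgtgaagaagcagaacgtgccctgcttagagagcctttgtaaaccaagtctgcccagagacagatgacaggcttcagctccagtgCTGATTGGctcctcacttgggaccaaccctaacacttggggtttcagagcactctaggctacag
RT1-Da: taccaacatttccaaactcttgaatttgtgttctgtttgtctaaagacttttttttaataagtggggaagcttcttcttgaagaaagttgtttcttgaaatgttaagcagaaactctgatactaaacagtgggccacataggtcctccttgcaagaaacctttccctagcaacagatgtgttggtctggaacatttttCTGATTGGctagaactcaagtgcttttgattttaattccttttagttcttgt
RT1-Db1: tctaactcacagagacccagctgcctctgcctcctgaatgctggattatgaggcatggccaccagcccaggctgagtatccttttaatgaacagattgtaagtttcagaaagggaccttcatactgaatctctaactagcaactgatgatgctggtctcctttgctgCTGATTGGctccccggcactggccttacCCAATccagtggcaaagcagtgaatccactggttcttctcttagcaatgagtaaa
The Y box began 46 bases before the start in RT1-Ba, 64 in RT1-Bb, 52 in RT1-Da and 83 in RT1-Db1. RT1-CE5 held it on the other strand, 48 bases before its start, so 5 of the 8 members with a promoter entry had a match, and Ciita had no entry. In windows from 250 bases before to 50 after the start, 3.50% of 33469 rat promoters hold the Y box letters and 37.5% hold CCAAT, which is part of every Y box match. A match is a run of letters and was not tested as a binding site.

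Of the 31042 probe sets, 6323 varied by more than 0.01 log2 over the 8 arrays, and the remaining 24719 held 1 value on every array, a property of the deposited values. The library of L. brevis 2 stood apart from the others in skeletal muscle transcripts: Acta1, skeletal alpha actin, was at 12.45 there and between 5.08 and 5.54 in the 7 other rats. Many of the member differences below are therefore also given without that rat. Leaving it out also removes the only L. brevis rat on its side of the separation described below, so a larger difference without it is not specific to the muscle transcripts. Hepatocyte markers were high in all livers, with 5 of 7 measured markers varying and a mean of 13.53 to 13.62 in controls and 13.52 to 13.61 with L. brevis. Of 11 measured markers of Kupffer cells and macrophages 9 varied, with means of 8.99 to 9.41 and 9.11 to 9.42, and of 6 endothelial markers all varied, with means of 9.09 to 9.62 and 8.89 to 9.04. All 5 measured B cell markers and all 9 T cell markers were flat, as were 5 of 6 for dendritic cells and 5 of 6 for natural killer cells. At an unadjusted p under 0.05 (limma) 2 macrophage markers, Adgre1 and C1qb, were higher and 3 endothelial markers, Pecam1, Kdr and Stab1, lower with L. brevis. Of all varying probe sets 9.44% were higher and 13.5% lower at that limit. None of these markers passed the adjustment, with adjusted p-values from 0.293 to 0.389 (limma). The other varying macrophage markers were mixed. Csf1r (0.40), Cd68 (0.12), C1qc (0.04) and Clec4f (0.01) were higher on average, and Lyz2 (-0.29), Cd163 (-0.16) and Mrc1 (-0.15) lower. The macrophage mean was highest in L. brevis 3 (9.42), control 2 (9.41) and L. brevis 1 (9.32), and the part of the cell types in the values below was not tested.

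Among the 20 member probe sets 15 varied, from 8 of the 9 genes, and 10 of them, from 5 genes, spanned at least 1 log2 between the lowest and the highest liver. Of all 6323 varying probe sets 38 spanned at least 5 log2, and 5 of these belong to members: RT1-Ba with 3, RT1-CE10 with 1 and Fam111a with 1. The livers separated the same way at most of these probe sets. Control 2, control 4 and L. brevis 2 were on one side, control 3 and L. brevis 1, 3 and 4 on the other, and control 1 took a place of its own. RT1-Da, RT1-Db1 and Cd74 stayed within 0.54 log2 over the same 8 livers. Because each array measured RNA of whole liver tissue, fewer cells of a type and less RNA per cell cannot be told apart. Probe sets of 1 gene also ran opposite ways. Pearson's r was -0.928 between RT1-Ba 1377334_at and 1392334_at, and -0.974 between the 2 probe sets of RT1-Bb. How well the probes match the RT1 sequences of these rats was not tested, so the spans are spans of signal.

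**Figure D1:**
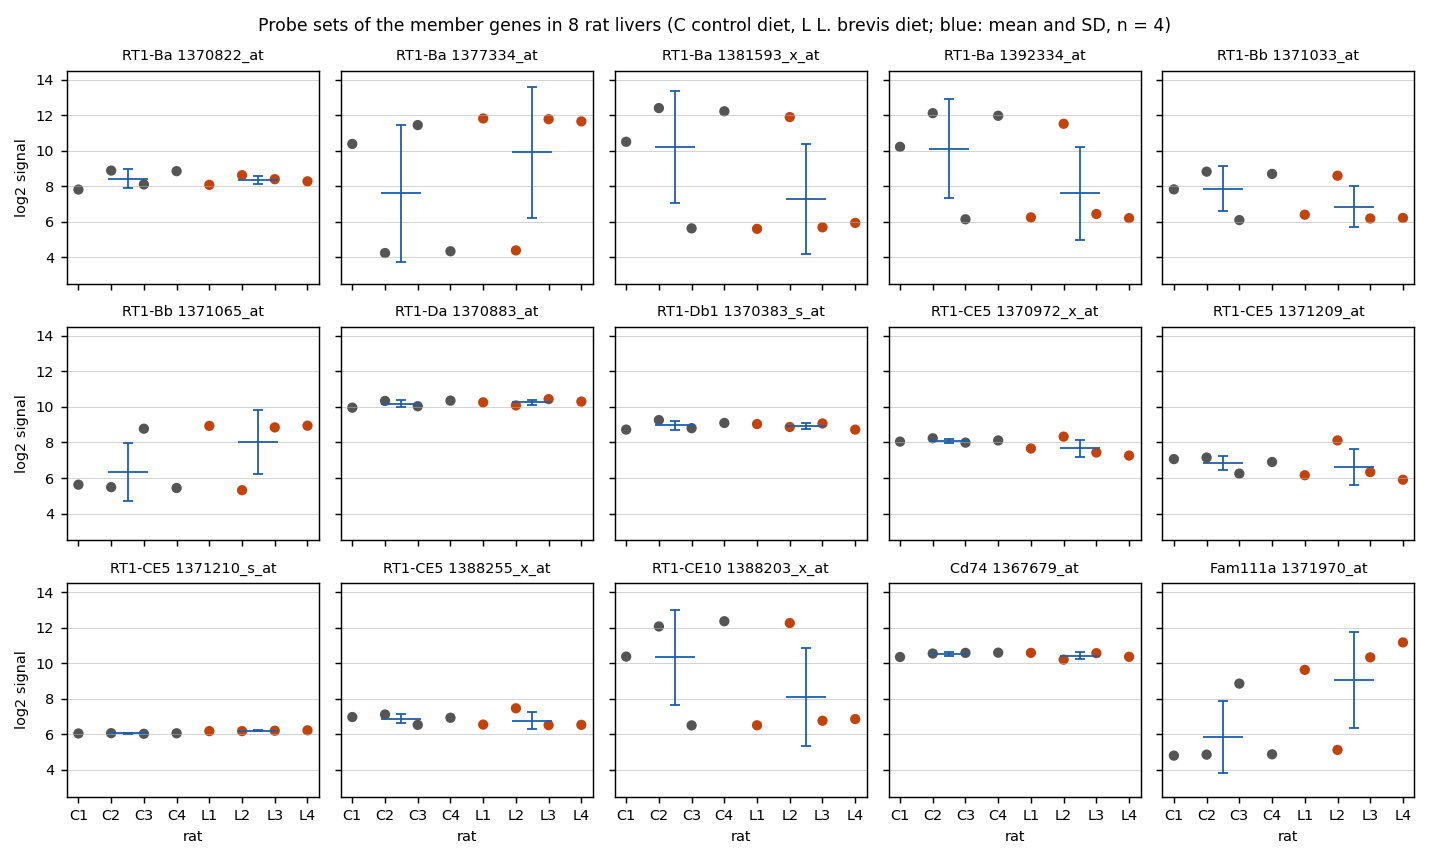
Each panel plots 1 varying member probe set, with the rats on the horizontal axis (C, control diet; L, L. brevis diet) and log2 signal on the vertical axis; grey and orange points are single rats and blue bars the mean and SD of each diet (n = 4). At RT1-Ba 1377334_at the rats sit at or below 4.38 or at and above 10.37, whereas RT1-Da, RT1-Db1 and Cd74 are level.

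RT1-Ba encodes the alpha chain of RT1.B, the rat counterpart of HLA-DQ, and had 4 probe sets, all varying. Probe set 1377334_at gave 10.37, 4.23, 11.44 and 4.33 in controls 1 to 4 and 11.81, 4.38, 11.77 and 11.64 in L. brevis rats 1 to 4. It was high in 5 livers and low in 3, with none in between over a gap of 5.99. The span of 7.57 is 191-fold in signal and ranked 8 among the 6323 varying probe sets. Means were 7.59 ± 3.85 in controls and 9.90 ± 3.68 with L. brevis (SD, n = 4 each), a difference of 2.31 (SE 2.63). Both diets held high and low livers, and without L. brevis 2 the difference was 4.15.

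Another 2 probe sets of RT1-Ba, which were designed on 1 source sequence and so are not independent, ran the opposite way. At 1381593_x_at the controls gave 10.50, 12.39, 5.62 and 12.21 and the L. brevis rats 5.59, 11.89, 5.68 and 5.93. At 1392334_at the controls gave 10.21, 12.11, 6.13 and 11.96 and the L. brevis rats 6.24, 11.51, 6.43 and 6.20. The suffix _x_at marks probes that may also match other transcripts. Here control 2, control 4 and L. brevis 2, the 3 livers that were low at 1377334_at, were the highest, and control 3 and L. brevis 1, 3 and 4 were low. The diet difference was -2.91 (SE 2.18) at 1381593_x_at and -2.51 (SE 1.88) at 1392334_at, opposite in sign to that of 1377334_at for the same gene. Without L. brevis 2 the values were -4.45 and -3.81.

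The fourth RT1-Ba probe set, 1370822_at, had a narrower spread. It gave 7.81, 8.88, 8.10 and 8.84 in controls and 8.07, 8.62, 8.39 and 8.27 in L. brevis rats, a span of 1.07. Control 2, control 4 and L. brevis 2 were the highest and control 1 the lowest. Pearson's r with 1377334_at was -0.829. The diets overlapped, with a difference of -0.07 (SE 0.29) whose sign turned in 3 of 8 analyses that left out 1 rat.

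RT1-Bb encodes the beta chain that pairs with RT1-Ba and is its neighbour on chromosome 20. Its 2 probe sets were opposite too. At 1371033_at the controls gave 7.82, 8.81, 6.09 and 8.69 and the L. brevis rats 6.39, 8.59, 6.18 and 6.21. At 1371065_at the controls gave 5.62, 5.49, 8.78 and 5.44 and the L. brevis rats 8.93, 5.31, 8.85 and 8.95. Control 2, control 4 and L. brevis 2 were high at the first and low at the second, and control 3 and L. brevis 1, 3 and 4 the reverse. The spans were 2.73 and 3.63. Differences between the diets were -1.01 (SE 0.85) and 1.68 (SE 1.20), and -1.59 and 2.58 without L. brevis 2. Neither diet was on 1 side only, since control 3 lay with most L. brevis rats and L. brevis 2 with most controls.

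**Figure D2:**
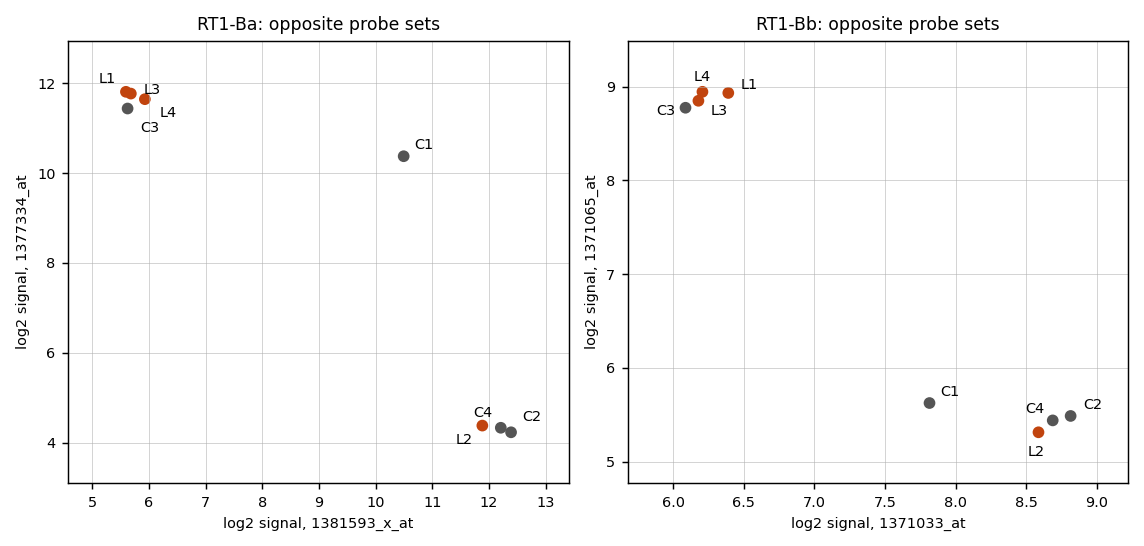
Log2 signals of 2 probe sets of RT1-Ba (left) and of RT1-Bb (right) against each other, 1 labelled point per rat (grey C, control diet; orange L, L. brevis diet). In both panels C3, L1, L3 and L4 lie at the upper left and C2, C4 and L2 at the lower right; C1, at 10.50 and 10.37, is high on both RT1-Ba axes but low on the vertical RT1-Bb axis at 5.62.

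Control 1 differed from both sets of livers. It was high at both opposite probe sets of RT1-Ba, but below each set's high livers: 1.06 log2 under the lowest of them at 1377334_at, 1.39 at 1381593_x_at and 1.30 at 1392334_at. At RT1-Bb 1371033_at it lay 0.77 under, and at RT1-CE10 1.69 under. At RT1-Bb 1371065_at, by contrast, it lay with the low livers, 0.14 above the highest of them, and at Fam111a it was the lowest of all 8. RT1-Ba 1377334_at and RT1-Bb 1371065_at thus did not rank control 1 alike. At RT1-Ba 1381593_x_at and 1392334_at and at RT1-Bb 1371033_at control 1 had the same place, below the high livers and above the widest gap. The probe sets of both chains ranked the other 7 livers into the same sets.

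RT1-Da, the alpha chain of RT1.D and counterpart of HLA-DRA, had 1 probe set with 9.96, 10.34, 10.04 and 10.35 in controls and 10.26, 10.09, 10.44 and 10.30 in L. brevis rats. These livers were level, within 0.48 log2, and the diets overlapped at 10.17 ± 0.20 and 10.27 ± 0.15 (SD, n = 4 each), a difference of 0.10 (SE 0.12). RT1-Db1 encodes the beta chain that pairs with it. Its varying probe set 1370383_s_at, whose suffix marks probes shared by several transcripts, gave 8.72, 9.26, 8.81 and 9.10 in controls and 9.04, 8.87, 9.07 and 8.72 in L. brevis rats, and 1370382_at was flat at 6.70. The span of 1370383_s_at was 0.54, control 2 was the highest, L. brevis 4 and control 1 were the lowest, and the diets overlapped with a difference of -0.05 (SE 0.15) that turned sign when control 2 or L. brevis 4 was left out. Neither gene showed the separation of livers seen at RT1-Ba and RT1-Bb, and all 4 promoters shown hold a Y box.

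RT1-CE10, a class I heavy chain gene of the same chromosome, had 1 probe set of the _x_at kind. It gave 10.38, 12.07, 6.50 and 12.37 in controls and 6.51, 12.26, 6.77 and 6.86 in L. brevis rats, a span of 5.86 that ranked 22 among the varying probe sets. Control 2, control 4 and L. brevis 2 were the highest, control 1 lay between, and control 3 and L. brevis 1, 3 and 4 were low, the same order of sets as at RT1-Ba 1381593_x_at. Both diets spanned the range, with means of 10.33 ± 2.70 and 8.10 ± 2.78 (SD, n = 4 each). The difference was -2.23 (SE 1.91), and -3.62 without L. brevis 2.

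RT1-CE5, another class I heavy chain gene, had 4 varying probe sets, and 1388254_a_at was flat at 5.87. At 1371209_at the controls gave 7.06, 7.15, 6.25 and 6.90 and the L. brevis rats 6.16, 8.11, 6.33 and 5.90. At 1388255_x_at, built on the same source sequence, the controls gave 6.97, 7.12, 6.54 and 6.94 and the L. brevis rats 6.55, 7.47, 6.52 and 6.54. L. brevis 2 was the highest at both, with controls 1, 2 and 4 next and control 3 and L. brevis 1, 3 and 4 below. A further probe set, 1370972_x_at, gave 8.05, 8.24, 7.99 and 8.11 in controls and 7.66, 8.33, 7.43 and 7.26 in L. brevis rats, so that L. brevis 1, 3 and 4 were below every other liver while control 3 was not. The diet differences were -0.21 (SE 0.54), -0.12 (SE 0.26) and -0.43 (SE 0.24), with overlap between the diets at all 3, and -0.71, -0.36 and -0.65 without L. brevis 2.

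The remaining RT1-CE5 probe set, 1371210_s_at, gave 6.05, 6.07, 6.03 and 6.06 in controls and 6.18, 6.18, 6.20 and 6.23 in L. brevis rats. These values lay below the array medians of 6.61 to 6.63, and the suffix _s_at marks probes shared by several transcripts. Every L. brevis liver was above every control liver, by a small step: the whole span was 0.19 and the difference 0.15 (SE 0.01). It did not follow the sets of livers above, and the 3 probe sets of the same gene with a wider span were lower, not higher, on average with L. brevis. The probe set 1371078_at, which lists RT1-CE5 together with RT1-A, RT1-CE7, RT1-CE11 and RT1-CE13, was flat at 6.99 and gives no value that could be assigned to 1 of these genes.

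Cd74, the invariant chain that accompanies class II chains, was high and level, with 10.35, 10.55, 10.59 and 10.60 in controls and 10.59, 10.21, 10.57 and 10.37 in L. brevis rats. The span was 0.39, L. brevis 2 was the lowest, and the diets overlapped with a difference of -0.09 (SE 0.11) and of -0.01 without L. brevis 2. Ciita, which switches class II genes on, had 2 probe sets, flat at 7.22 and 6.82, so its level could not be compared between these livers. The invariant chain did not separate the livers as RT1-Ba and RT1-Bb did.

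Fam111a is not an MHC gene. It lies on chromosome 1 and encodes a serine protease known for its roles at replication forks and in restricting some viruses. Its probe set gave 4.80, 4.86, 8.86 and 4.88 in controls and 9.63, 5.12, 10.33 and 11.18 in L. brevis rats. Control 3 and L. brevis 1, 3 and 4 were high and the others low, the set that was high at RT1-Bb 1371065_at, and L. brevis 2 was again with the controls. The span of 6.37 is 82.8-fold and ranked 17 among the varying probe sets. Within the 4 high livers the signal still spread from 8.86 in control 3 to 11.18 in L. brevis 4. Means were 5.85 ± 2.01 and 9.07 ± 2.70 (SD, n = 4 each), the diets overlapped, and the difference of 3.22 (SE 1.66) was 4.53 without L. brevis 2.

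Of the genes within 10 places of Fam111a on GRCr8, the one that ran most clearly against it was Glyatl2, a glycine acyltransferase gene 6 genes away, which was singled out after its values were seen. It gave 9.20, 9.15, 8.36 and 8.94 in controls and 8.46, 9.00, 7.23 and 7.04 in L. brevis rats, lowest in L. brevis 3 and 4, where Fam111a was highest. Glyat, another acyltransferase 3 genes away, spanned 0.44.

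**Figure D3:**
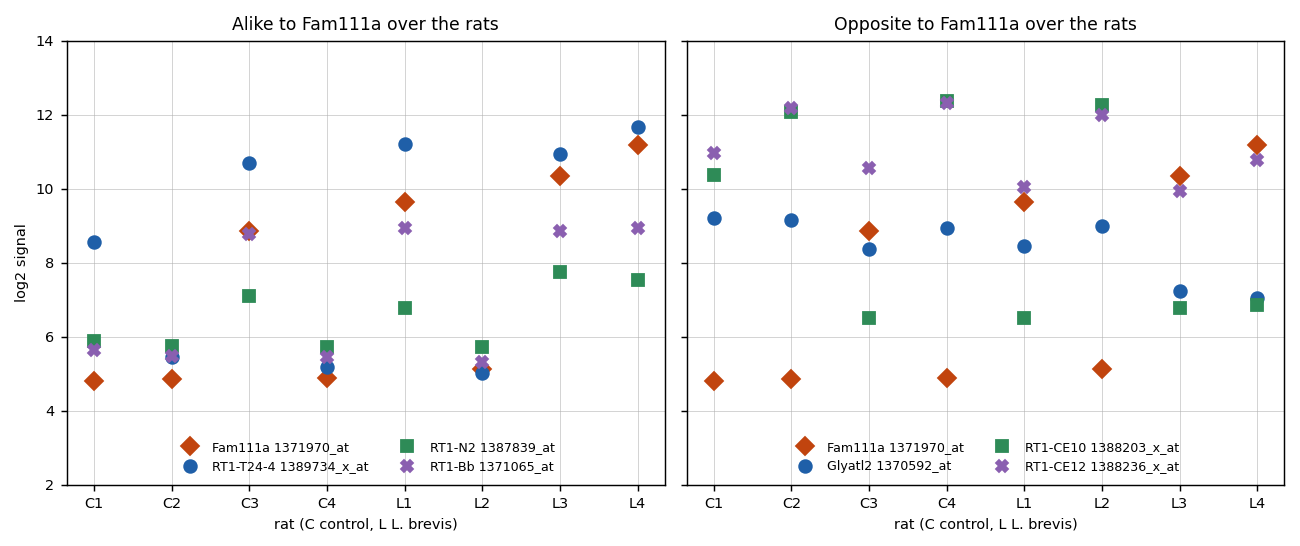
Log2 signal of Fam111a in each rat beside 3 probe sets that were high in the same livers (left) and 3 that were opposite (right). On the left, RT1-T24-4 was also raised in C1, at 8.57, where Fam111a was at 4.80. C is control diet and L is L. brevis diet, with 1 point per probe set and rat. Fam111a is at or above 8.86 in C3, L1, L3 and L4 and at or below 5.12 in the rest; levels of different probe sets are not comparable.

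Set side by side, the diets did not separate at 14 of the 15 varying member probe sets. The 1 that did not overlap, RT1-CE5 1371210_s_at, stands against 11.3% of all varying probe sets. Of the 15, 5 were higher and 10 lower on average with L. brevis, with a median difference of -0.09 against -0.02 over all varying probe sets, and a median span of 2.21 against 0.74. In the fit over all probe sets (limma, Benjamini-Hochberg threshold of 0.05) 1 of the 20 member probe sets, the same 1371210_s_at, was among the calls, which were 0.142% of all probe sets. When the varying probe sets were fitted alone, 0 of 15 members were called, with 0.0633% called in all. At an unadjusted p under 0.05 in the all-probe-set fit 1 member was higher and 0 were lower, where 9.44% of varying probe sets were higher and 13.5% lower. Since the members were chosen on these values, nothing is read from those counts.

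The other genes of antigen presentation were taken from lists of class II chains and their exchange factors, class II transcription factors, processing enzymes, class I heavy chains, class I assembly genes, costimulators and further RT1 genes. Of 46 genes measured by 69 probe sets, 32 probe sets varied, 18 higher and 14 lower with L. brevis on average, with a median difference of 0.03. Class I heavy chains had 7 varying probe sets, 5 higher and 2 lower, and class I assembly genes 13, 8 higher and 5 lower. Class II transcription factors had 3, 1 higher and 2 lower, and processing enzymes 5, of which 3 were higher. With 0.05 as the limit of the unadjusted p (limma) 2 were higher and 2 lower, beside the 9.44% and 13.5% of all varying probe sets, and 1 passed the adjustment over all probe sets. That was Icoslg, which encodes the partner of ICOS on T cells, with 9.04, 9.21, 9.18 and 9.21 in controls and 8.47, 8.20, 8.26 and 8.17 in L. brevis rats. Its difference was -0.89 (SE 0.08), with an adjusted p of 0.0207 (limma) that was 0.0653 after quantile normalization and between 0.00223 and 0.0703 with 1 rat left out, and between 0.00175 and 0.255 over all alternatives. With 1 rat left out it was under 0.05 without control 1 or L. brevis 1, and over it without any 1 of the other 6 rats.

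B2m, the light chain of class I, was higher in every L. brevis liver at 1 of its 2 varying probe sets, with 13.05, 13.06, 12.83 and 12.89 in controls and 13.20, 13.24, 13.56 and 13.39 in L. brevis rats. The difference was 0.39 (SE 0.10; unadjusted p = 0.0071, adjusted p = 0.333, limma), and the robust fit gave an unadjusted p of 0.660. Tap1, the transporter that brings peptides to class I, gave 8.09, 8.12, 7.54 and 7.98 in controls and 7.65, 7.68, 7.51 and 7.42 in L. brevis rats, a difference of -0.37 (SE 0.15; unadjusted p = 0.0434, adjusted p = 0.412, limma), and with 1 rat left out its unadjusted p was under 0.05 only without control 3. RT1-A, a class I gene name of the array annotation, gave 7.42, 5.72, 7.06 and 6.05 and 8.92, 6.81, 9.09 and 8.29. It differed by 1.72 (SE 0.65; unadjusted p = 0.0376, adjusted p = 0.386, limma), and with 1 rat left out its unadjusted p was under 0.05 only without control 1 or L. brevis 2. These 3 did not pass the adjustment. The diets overlapped at Tap1 and RT1-A. A probe set listed with both RT1-A2 and RT1-A3 gave 10.74, 10.74, 10.96 and 11.06 in controls and 11.08, 11.25, 11.71 and 11.33 in L. brevis rats. There, as at that probe set of B2m, the diets did not overlap, which held for 11.3% of all varying probe sets.

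Several class I heavy chain genes outside the chosen set separated the livers along the same line. RT1-T24-4, of the nonclassical T24 family, gave 8.57, 5.46, 10.69 and 5.17 in controls and 11.22, 5.01, 10.93 and 11.66 in L. brevis rats, a span of 6.65. RT1-N2, another nonclassical gene, gave 5.89, 5.73, 7.09 and 5.72 and 6.76, 5.72, 7.75 and 7.54. Both were high in control 3 and L. brevis 1, 3 and 4, and control 1 was intermediate at RT1-T24-4 but low at RT1-N2. RT1-CE12 gave 10.95, 12.17, 10.55 and 12.31 and 10.06, 11.98, 9.93 and 10.78, highest in control 2, control 4 and L. brevis 2. Differences between the diets were 2.23 (SE 2.03), 0.84 (SE 0.56) and -0.81 (SE 0.63), with overlap at all 3 and an unadjusted p of 0.312, 0.184 and 0.248 (limma).

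RT1-CE16 gave 8.25, 9.09, 8.62 and 9.09 in controls and 7.64, 9.02, 7.89 and 8.50 in L. brevis rats, again highest in control 2, control 4 and L. brevis 2 with 0.39 log2 between the lowest of them and the next liver. RT1-S3 had 3 varying probe sets, the widest spanning 1.08 with a difference of 0.48 (SE 0.20) and its highest signal in L. brevis 2. Among the genes of processing and loading, Tap1 ranked controls 1, 2 and 4 and L. brevis 2 above control 3 and L. brevis 1, 3 and 4. Its widest gap, 0.30 log2, left L. brevis 2 with the lower livers, at 7.68 beside 7.65 in L. brevis 1. The other genes of processing and loading showed no such sets of livers. Ctss, the cathepsin that cuts the invariant chain, gave 9.45, 10.43, 9.72 and 10.06 in controls and 10.35, 10.18, 10.65 and 10.22 in L. brevis rats, a difference of 0.44 (SE 0.23) with overlap. RT1-DMb, a chain of the peptide exchange factor, spanned 0.42, and the immunoproteasome subunit Psmb8 spanned 1.09. Canx, a chaperone of class I chains, spanned 2.05 at 1371687_at with a difference of 0.85 (SE 0.39). Of the class II transcription factors Irf1, Creb1 and Rfxank varied, with differences of -0.31, 0.09 and -0.17, and unadjusted p-values of 0.171, 0.753 and 0.105 (limma).

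Position on chromosome 20 was compared next. Between the first and the last RT1 gene of GRCr8, 30 probe sets measured RT1 genes, of which 21 varied and 14 of those spanned at least 1 log2, 66.7%. Without the members, 5 of 8 varying RT1 probe sets did so, 62.5%. Among the other genes of the same stretch it was 9 of 33, 27.3%, beside 32.1% of the 4882 varying probe sets with 1 symbol on the whole array. Those 9 were Ubd, Ppp1r10, Ier3, Ddr1, Ddx39b, Ltb, Abhd16a, Hspa1a and Psmb8. RT1-Db1, RT1-Ba and RT1-Bb are direct neighbours in this order, so the level RT1-Db1 and the 2 separating genes adjoin. These shares are a description, since the members were chosen from this region.

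**Figure D4:**
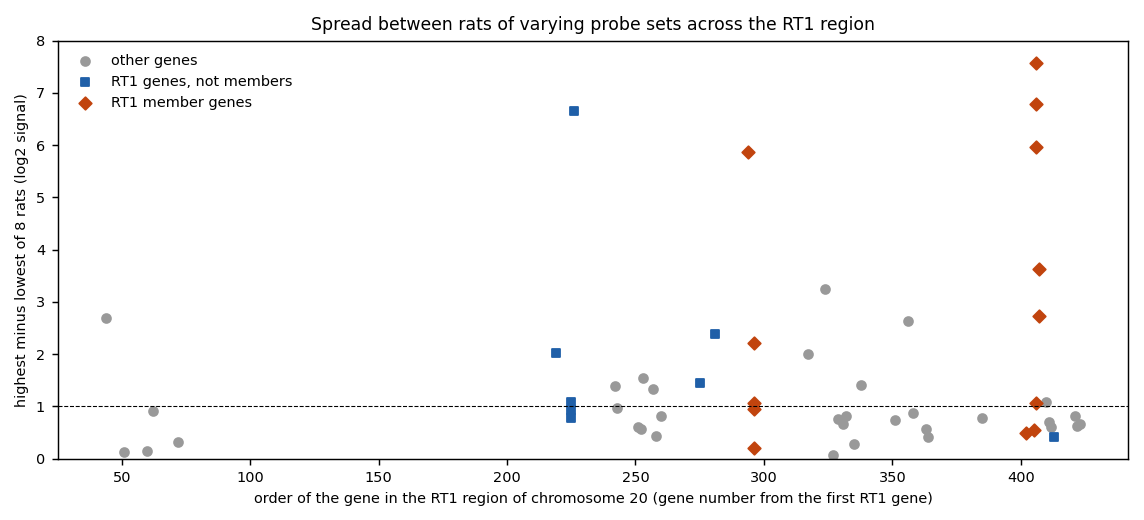
Spread between rats (highest minus lowest log2 signal of 8) of each varying probe set between the first and last RT1 gene of chromosome 20, plotted by gene order; diamonds are members, squares other RT1 genes and circles other genes, with a dashed line at 1 log2. The widest spreads belong to RT1-Ba at 7.57 and 6.80 and RT1-T24-4 at 6.65, while no circle exceeds 3.24.

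Likeness to each member was described by Pearson's r over the 8 livers, among 1555 other probe sets that carry 1 symbol and span at least 1 log2, 14 of them in the RT1 region. The 8 livers share 2 diets, and since they fell into separate sets at several genes, r mostly records who lay in which set. For RT1-Ba 1377334_at the nearest were RT1-T24-4 (r = 0.979), the fatty acid desaturase gene Fads1 (0.868), RT1-A (0.848), RT1-N2 (0.827) and Ptprf (0.821). The most opposite were RT1-CE12 (-0.955), the prion protein gene Prnp (-0.932) and the collagen receptor gene Ddr1 (-0.903). Of the 4 probe sets with r of at least 0.9 in size, 3 lie in the RT1 region. For RT1-CE10 it was 3 of 3, with RT1-CE12 alike at 0.933 and RT1-T24-4 and RT1-N2 opposite at -0.978 and -0.918. For RT1-Bb 1371065_at it was 2 of 2, RT1-N2 at 0.941 and RT1-T24-4 at 0.938. The probe sets of RT1-CE10, RT1-CE12 and RT1-T24-4 are of the _x_at kind and may also match other transcripts.

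Fam111a had 6 probe sets at that limit, 2 of them in the RT1 region although Fam111a itself is not: RT1-N2 (0.964) and RT1-T24-4 (0.907). Its most opposite were the zinc finger gene Zfp189 (-0.917), Glyatl2 (-0.914) and the zinc finger gene Zkscan1 (-0.910). The level class II genes had other neighbours, none in the RT1 region at that limit. RT1-Da was nearest to Il33, a cytokine of barrier cells, at 0.948 and 0.891 for its 2 probe sets, and to Lrrc8b (0.917), and opposite to the steroid sulfatase gene Sts (-0.901). RT1-Db1 was nearest to the prolactin receptor gene Prlr (0.901) and opposite to Egf (-0.913). RT1-CE5 1371209_at was nearest to the immediate early gene Fos (0.964), and Cd74 had 0 at the limit, with Gne nearest (0.858). Spearman's rho in place of Pearson's r kept 0 to 3 of the nearest 5 for each gene, so these names depend on the measure.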

How the data were processed

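Liver RNA of 4 control and 4 L. brevis rats was measured on Affymetrix arrays from 100 ng of total RNA labelled with a 3' IVT kit, per the labels' protocols. The values are log2 signals that the authors deposited already normalized; the summarisation and normalization are not given in the sources used here. They hold 1 value per probe set and array, and that number of arrays, 4 per diet, limits the precision. Gene symbols come from the platform annotation, updated through gene identifiers (20758 of 20826 probe sets with 1 symbol matched); 436 probe sets list several symbols and 9780 none.

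From 31099 probe sets 57 Affymetrix controls were removed, and the other 31042 entered 1 linear model per probe set (limma 3.58.1, R 4.3.3), moderated by eBayes with the trend option. The p-values are two-sided and were adjusted after Benjamini and Hochberg, with 0.05 as the threshold. A probe set varied when its range over the arrays exceeded 0.01 log2. The fit was tested on simulated data. The members and gene lists were chosen with earlier results of these data known. Named are all member probe sets, pathway probe sets that spanned at least 1 log2 or had an unadjusted p under 0.05, the 5 nearest and 3 most opposite probe sets by Pearson's r, and cell type markers; others are named beside a count or after their values were seen. Labels say that replicates are biological but not whether rats shared cages or litters. Probe sequences were not used here. Alternatives were other probe set filters, variance priors, normalizations, array weights, the replicate number as a block, and leaving out each rat.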

Additional observations from a re-analysis of the deposited data

Results flagged for a closer look

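In groups of 4, a rat was marked when its distance to the nearest rat of its diet exceeded the share of the group's range that Dixon's test gives at 95%. Of 116 groups in 58 probe sets 15 were marked. Chance marks about 1 in 20, but no comparison with that rate can be made, since the members were chosen on these same values and the probe sets are not independent. L. brevis 2 accounted for 9 of them, control 3 for 4, and controls 1 and 2 for 1 each.

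L. brevis 2 was the lowest of its diet at RT1-Ba 1377334_at (4.38, others 11.64 to 11.81), RT1-Bb 1371065_at (5.31, others 8.85 to 8.95) and RT1-T24-4 (5.01, others 10.93 to 11.66). It was the highest of its diet at RT1-Ba 1381593_x_at (11.89, others 5.59 to 5.93), RT1-Ba 1392334_at (11.51, others 6.20 to 6.43) and RT1-Bb 1371033_at (8.59, others 6.18 to 6.39). The same held at RT1-CE5 1388255_x_at (7.47, others 6.52 to 6.55), RT1-CE10 (12.26, others 6.51 to 6.86) and Ddr1 (7.93, others 6.61 to 6.81). This is the library with the skeletal muscle transcripts, and the part of that tissue in these values was not tested.

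Control 3 was the highest control at RT1-Bb 1371065_at (8.78, others 5.44 to 5.62), Fam111a (8.86, others 4.80 to 4.88) and RT1-N2 (7.09, others 5.72 to 5.89), and the lowest at Zkscan1 (8.51, others 8.85 to 8.92). Control 1 was the lowest control at Icoslg (9.04, others 9.18 to 9.21). Control 2 was the highest control at Trim24 (9.41, others 7.15 to 7.53).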

How the results depend on the processing

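The member differences had 239 alternative values, and 238 moved by less than the spread between rats. For the 120 with 1 rat left out this was fixed in advance. Dropping 1 of 4 rats always moves a diet mean by less than its spread. The other filters, the variance priors and the block kept each difference as it was, so the count does not measure stability. RT1-CE5 1371210_s_at came to 0.18 with median centring, the 1 value that moved more. Leaving out 1 rat turned the sign 6 times, in RT1-Ba 1370822_at (0.09 without control 2, 0.08 without control 4, 0.02 without L. brevis 1), RT1-Db1 1370383_s_at (0.05 without control 2, 0.02 without L. brevis 4) and RT1-CE5 1371209_at (0.03 without L. brevis 4). With 1 rat left out the difference ranged from 2.51 to 4.53 at Fam111a, from 1.19 to 4.15 at RT1-Ba 1377334_at, from -4.45 to -2.17 at RT1-Ba 1381593_x_at and from -3.62 to -1.55 at RT1-CE10. Leaving out control 3, where Acta1 was at 5.46, gave 4.22, 3.59, -4.43 and -3.51 in the same order.

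Of all probe sets 44 were called (17 higher, 27 lower, limma), only 7 of them varying. The count was 4 with the varying probe sets alone, 21 above the median level, 4 with median centring, 77 with array weights, and 67 to 180 with 1 rat left out. Quantile normalization left 0, with 3374 at an unadjusted p under 0.05. The replicate number as a block gave 128. At an unadjusted p under 0.05 (limma) it gave 3128 of all probe sets and 7 of antigen presentation (4 higher, 3 lower). Icoslg then had an adjusted p of 0.255 and B2m an unadjusted p of 0.0584 (limma). The replicate numbers share no stated litter or batch. Deviations of same-numbered rats correlated at 0.359, 0.203, 0.0778 and 0.381, with 5 of 8 rats closest to their own number. The numbers were therefore not taken to pair the rats.

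Antigen presentation probe sets under an unadjusted p of 0.05 (limma) numbered 4 (2 higher, 2 lower). They were 9 with median centring (7 higher, 2 lower), 9 with array weights (6 higher, 3 lower), and 2 to 8 with 1 rat left out. Over all 31042 probe sets that limit took in 3644 in the main fit, 20590 with median centring and 6065 with array weights. With 1 rat left out it took in 2533 to 4804. Since the total rose with median centring and array weights too, nothing is read from the higher counts. The 1 member call, RT1-CE5 1371210_s_at, was lost with the varying probe sets alone, quantile normalization, median centring, the block, and without control 1 or L. brevis 3, and its difference there was 0.14 to 0.18. The filter on dim probe sets removed that probe set before the fit. Median centring added 0.0370 to every diet difference, which took 1371210_s_at from 0.1459 to 0.1829. The cause of the other changes was not tested. Flat probe sets, such as those of Ciita, give no comparison, and 4 arrays per diet limit the rest.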
